A study of Mus musculus with 10 samples.

Results

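The genes described here encode the proteins of the cytosolic ribosome. They were taken from the count table as the protein-coding genes whose symbol is Rpl or Rps followed by a number and at most a short ending, together with Rpsa, Rplp0, Rplp1 and Rplp2, and without the S6 kinases. The choice used names alone and gave 83 genes of the 55487 distinct genes listed, 32 for the small subunit and 51 for the large subunit, of which 3 form its stalk. Of the 83, 6 carry the name of a paralog (Rpl3l, Rpl7l1, Rpl10l, Rpl22l1, Rpl39l and Rps27l). The low-count filter kept 82, and Rpl10l, a testis paralog of Rpl10 with 0 to 2 counts in a library, was not tested.

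The samples were 10 RNA libraries of the mouse RPE/choroid complex, which is the retinal pigment epithelium (RPE) with the vascular layer behind it. All mice carried iDTR, the allele Gt(ROSA)26Sortm1(HBEGF)Awai on C57BL/6, which is a diphtheria toxin receptor switched on by Cre, and all received diphtheria toxin into the peritoneum. The 5 controls carried iDTR alone. The 5 ADQ samples also carried Adiponectin-Cre, whose promoter is active in fat cells, so the comparison asks what ablation of fat cells does to this tissue of the eye; for the mice with Cre, injections are stated as daily over 7 weeks. The sources used here give neither age nor sex. They do not say either that the samples of a group were separate animals, so each p-value is set against a spread between samples that may be technical. Total counts ran from 43591245 (ADQ 4) to 64087660 (ADQ 5). The 10 RPE markers summed to 37395 to 53290 CPM (counts relative to the library total, after scaling by TMM factors) in control and to 32085 to 47316 CPM in ADQ, with 7 below 0 in log2 fold change (median -0.15) and 0 called. Libraries also differed in markers of tissue around the eye. Those of cornea and conjunctiva summed to 104 to 1075 CPM in control and 78.6 to 94.3 CPM in ADQ, so every control lay above every ADQ library. All 5 tested were below 0 in log2 fold change (median -7.71), with 5 at an unadjusted p under 0.05 and 0 called in edgeR. Markers of skeletal muscle were lowest in ADQ 5.

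The library labelled control 5 went against its label in the markers of fat cells, the ablated type. The 7 tested markers summed to 92.4, 192, 109, 136 and 29.4 CPM in controls 1 to 5 and 56.1, 35.4, 49.6, 31.6 and 36.4 CPM in ADQ 1 to 5, so control 5 lay below every ADQ library while the other 4 controls lay above every ADQ library. Adipoq, which encodes adiponectin, was at 0 in control 5, at 4.06 to 7.93 CPM in controls 1 to 4 and at 0.176 to 1.67 CPM in ADQ. All 7 were below 0 in log2 fold change (median -1.91), 5 had an unadjusted p under 0.05 and 0 passed the test in edgeR; without control 5 the test called 6 of the 7, all lower in ADQ. Control 5 also stood with ADQ in the 12 lymphocyte markers, which summed to 37.1, 32.2, 37.6, 55.8 and 136 CPM in controls 1 to 5 and 175, 157, 123, 128 and 117 CPM in ADQ 1 to 5. It alone of the controls lay in the ADQ range. All 12 were above 0 in log2 fold change (median 1.28), with 8 at an unadjusted p under 0.05 and 0 called, and without control 5 the test called 7 of the 12, all higher in ADQ. Control 5 was singled out by its values in these markers, so the calls of the same markers without it are no separate evidence. Results below count control 5 as a control, as labelled, and the main ones are also given without it.

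The ribosome decodes messenger RNA in its small subunit and joins amino acids in its large subunit, each built from ribosomal RNA and a single copy of nearly every ribosomal protein. Because the proteins are needed in equal amounts, their genes are widely known for being expressed together. Their transcripts begin with a C followed by a run of pyrimidines, the terminal oligopyrimidine (TOP) tract, through which the mTORC1 kinase controls their translation. The RPE is a long-lived epithelium that secretes, transports and digests shed photoreceptor membrane, and so depends on protein synthesis throughout life.

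The start regions of 7 genes are shown because the tract lies at this place. These genes include Rpl22l1 and Rpl3l, which were among those that followed the other ribosomal protein genes least across libraries. Whether the sequences bear on RNA levels was not tested. A promoter was matched by symbol for 63 of the 83 genes in RefSeq (GRCm38.p6). The windows hold 40 bases before and 20 bases from the listed start site and lie at chr17:24720023-24720082 (plus strand) for Rps2, chr5:115559427-115559486 (plus strand) for Rplp0, chr4:86857348-86857407 (minus strand) for Rps6, chr7:4792925-4792984 (plus strand) for Rpl28, chr3:90213629-90213688 (minus strand) for Rps27, chr3:28805468-28805527 (plus strand) for Rpl22l1 and chr17:24727786-24727845 (plus strand) for Rpl3l. Each is written 5′ to 3′ on the gene's strand, and capitals mark its longest run of C and T.
Rps2: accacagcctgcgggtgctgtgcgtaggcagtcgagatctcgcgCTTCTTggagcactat
Rplp0: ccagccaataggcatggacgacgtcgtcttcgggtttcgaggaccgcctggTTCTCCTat
Rps6: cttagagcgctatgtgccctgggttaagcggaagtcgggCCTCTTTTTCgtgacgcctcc
Rpl28: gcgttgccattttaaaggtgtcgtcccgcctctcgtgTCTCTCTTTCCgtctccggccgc
Rps27: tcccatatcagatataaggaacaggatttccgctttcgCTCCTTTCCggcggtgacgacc
Rpl22l1: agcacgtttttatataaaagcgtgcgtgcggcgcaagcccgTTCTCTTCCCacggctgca
Rpl3l: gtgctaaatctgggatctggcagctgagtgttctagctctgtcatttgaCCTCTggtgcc
In Rps6, Rpl28 and Rps27 the run crosses the listed start, and in Rpl3l, the muscle paralog, it holds 5 bases. In Rps2, Rplp0, Rpl22l1 and Rpl3l the run begins after the listed start. The longest run had a median of 8 bases over the 63 genes and 6 bases over all 27025 promoters of the table, and it reached at least 8 bases in 50.8% of the former and 24.0% of the latter. In the full promoters of 250 bases before and 50 after the start, read on both strands with overlaps allowed, CTCTTT, a stretch of pyrimidines, occurred in 42.9% of the 63 and in 22.9% of all. CCGGAAG, a core recognised by ETS factors, occurred in 39.7% against 9.12%, and AANATGGC, the core of the YY1 motif, in 19.0% against 6.23%. TATAAA occurred in 9.52% against 14.2%. These are matches of letters, not sites of binding.

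No cytosolic ribosomal protein gene passed the test between ADQ and control. In the edgeR quasi-likelihood fit over 20684 genes, 0 of 82 had an adjusted p under 0.05, where 0.827% of all genes tested did (0.74% with a higher and 0.087% with a lower value in ADQ). At an unadjusted p under 0.05 there were 3 genes, all lower in ADQ (Rps2, Rplp0 and Rpl15), where 13.8% of all genes reached that level and 5.85% did so with a lower value in ADQ. DESeq2 and limma voom with quality weights also called 0 of 82, with 4 and 23 at an unadjusted p under 0.05, a level reached by 15.2% of all genes in DESeq2 and 23.3% in voom. The estimates leaned to one side: 78 of 82 log2 fold changes were below 0, against 48.2% of all genes. Their median was -0.20, a 1.15-fold difference with ADQ lower, beside a median of 0.01 over all genes tested. These genes varied together across libraries, as described below, so the 78 are not separate results. In no gene were the groups apart in CPM, against 3.16% of all genes tested. Without control 5, the median of the 82 was -0.14, 75 were below 0, 0 passed the test and 1 (Rps2) had an unadjusted p under 0.05, where 1.70% of all genes passed and 12.5% had such a p; the smallest adjusted p was 0.395 (Rps2, edgeR).

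The intervals were wide beside these estimates. The median standard error of a ribosomal protein gene was 0.18 on the log2 scale, the same to this precision as that of all genes tested, and 80 of 82 intervals at 95% lay within 1 log2 unit of 0 on both sides. The 2 that did not belong to Rpl3l (-1.40 to 0.26) and Rpl24 (-1.12 to 0.93). Leaving out a library moved the median of the 82 genes to -0.12 without control 1, -0.35 without ADQ 1 and -0.11 without ADQ 3, and it was -0.12 with libraries scaled by total counts alone. Without ADQ 1, 50 of the 82 had an unadjusted p under 0.05, where 20.5% of all genes did, and the smallest adjusted p was 0.0840 (Rps2, edgeR). In bulk tissue, fewer cells of a type and less RNA per cell cannot be told apart.

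**Figure D1:**
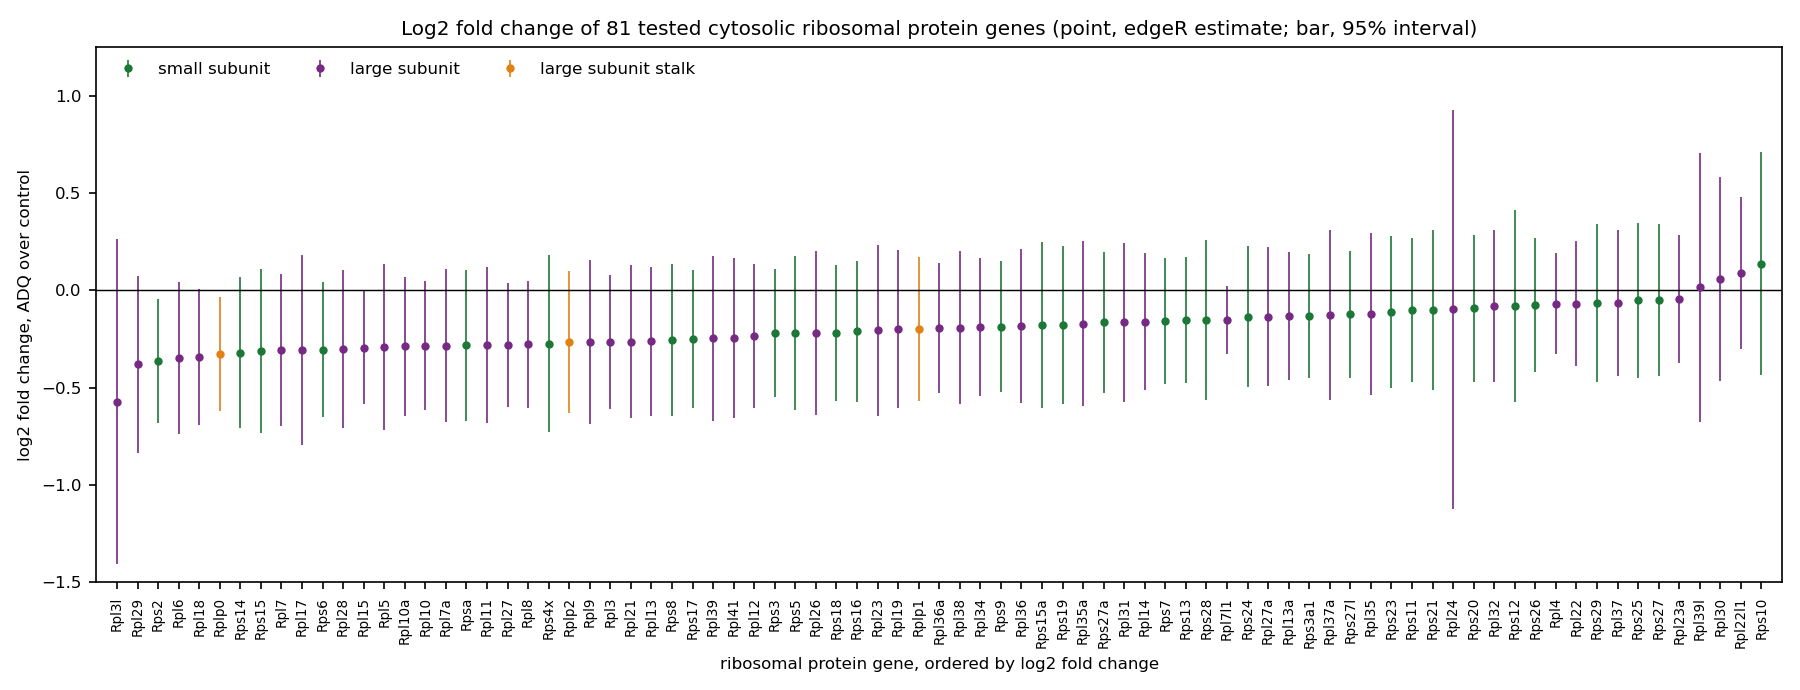
Log2 fold change of ADQ over control for 81 of the 82 tested cytosolic ribosomal protein genes, ordered by size, with points for the edgeR estimate, bars for its 95% interval, and colour for the subunit. Most points lie below 0 with a median of -0.20, and the bars of all but 3 genes (Rps2, Rplp0 and Rpl15) cross or touch 0.

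Among the small subunit proteins the 32 log2 fold changes had a median of -0.16, and 31 were below 0. Rps2 stood at 273, 198, 220.3, 249 and 240.0 CPM in controls 1 to 5 and at 248, 186, 129, 165 and 191 CPM in ADQ 1 to 5. Rps2 sits near the channel where messenger RNA enters the small subunit. The lowest ADQ library was ADQ 3, ADQ 1 exceeded 3 of the 5 controls, and the other 4 ADQ libraries lay below every control (log2 fold change -0.36, SE 0.15, edgeR adjusted p = 0.306).

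Rps6 stood at 226, 156, 165, 193 and 207 CPM in controls 1 to 5 and at 217, 157, 110.5, 134 and 149.9 CPM in ADQ 1 to 5. Rps6 is the protein phosphorylated by the S6 kinases downstream of mTORC1. ADQ 1 lay among the highest controls and ADQ 3 was the lowest library (log2 fold change -0.30, SE 0.16, edgeR adjusted p = 0.415). Rps14 stood at 428, 312, 257, 331 and 404 CPM in controls 1 to 5 and at 388, 280.5, 193, 245 and 282 CPM in ADQ 1 to 5. Rps14, whose loss of 1 copy underlies the anaemia of the 5q deletion syndrome, overlapped between groups in the same way (log2 fold change -0.32, SE 0.18, edgeR adjusted p = 0.439).

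Rps15, a protein of the head of the small subunit, had a log2 fold change of -0.31 (SE 0.19), with 179 ± 38.7 CPM in control and 144 ± 40.5 CPM in ADQ (SD, n = 5 each). Rpsa, the small subunit protein also known as the laminin receptor, had 224 ± 33.6 CPM in control and 184 ± 52.8 CPM in ADQ (SD, n = 5 each), with a log2 fold change of -0.28. Both pairs of means differed by about as much as the SD within a group. The other genes with a known disease or side role gave -0.18 for Rps19, -0.07 for Rps26 and 0.14 for Rps10, which are genes of Diamond-Blackfan anaemia, -0.05 for Rps25, which certain viral messages need, -0.17 for Rps27a, which is made as a fusion with ubiquitin, and -0.22 for Rps3, which also acts in DNA repair.

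Large subunit proteins, the stalk included, had a median log2 fold change of -0.21 over 50 genes, with 47 below 0. Rpl6 stood at 236, 162, 158, 204 and 220.1 CPM in controls 1 to 5 and at 216, 162, 101, 134 and 158 CPM in ADQ 1 to 5. ADQ 3 was the lowest library again, ADQ 1 lay among the controls, and the groups overlapped (log2 fold change -0.35, SE 0.18, edgeR adjusted p = 0.408). Rpl15 stood at 116, 96.8, 95.03, 117 and 107 CPM in controls 1 to 5 and at 113, 87.6, 61.3, 79.8 and 92.2 CPM in ADQ 1 to 5. Rpl15, a core protein of the large subunit, had ADQ 1 within the control range and the other 4 ADQ libraries below every control (log2 fold change -0.29, SE 0.13, edgeR adjusted p = 0.353).

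The 10 largest log2 fold changes by size were -0.57 (Rpl3l), -0.38 (Rpl29), -0.36 (Rps2), -0.35 (Rpl6), -0.34 (Rpl18), -0.33 (Rplp0), -0.32 (Rps14), -0.31 (Rps15), -0.31 (Rpl7) and -0.31 (Rpl17), all below 0. Rpl5 and Rpl11, which with 5S RNA form the particle that can bind Mdm2 and stabilise p53, had log2 fold changes of -0.29 (SE 0.20) and -0.28 (SE 0.18). Rpl26, which can promote translation of p53, gave -0.22, Rpl35a, a gene of Diamond-Blackfan anaemia, gave -0.17, and Rpl38, required for the translation of certain Hox messages, gave -0.19. None of these passed the test.

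The 4 estimates above 0 were those of Rps10, Rpl22l1, Rpl30 and Rpl39l, at 0.14, 0.09, 0.06 and 0.02. Rpl30 stood at 79.4, 51.4, 44.9, 64.4 and 96.7 CPM in controls 1 to 5 and at 104, 70.2, 48.6, 65.2 and 63.0 CPM in ADQ 1 to 5. Rpl30, a large subunit protein that in yeast represses its own splicing, was highest in ADQ 1 and control 5 and lowest in control 3 and ADQ 3 (SE 0.24, edgeR adjusted p = 0.933).

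The 3 stalk proteins recruit the elongation factors to the ribosome, with Rplp0 as the base that carries Rplp1 and Rplp2. Rplp0 stood at 519, 412, 420.3, 486 and 493 CPM in controls 1 to 5 and at 488, 378, 267, 339.9 and 385 CPM in ADQ 1 to 5. Here too ADQ 1 lay inside the control range, while the other 4 ADQ libraries were below the lowest control (log2 fold change -0.33, SE 0.14, edgeR adjusted p = 0.319). Rplp1 had 303 ± 59.2 CPM in control and 264 ± 65.3 CPM in ADQ (SD, n = 5 each) and a log2 fold change of -0.20, and Rplp2 had 168 ± 30.6 CPM in control and 139.8 ± 35.1 CPM in ADQ (SD, n = 5 each) and a log2 fold change of -0.27.

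**Figure D2:**
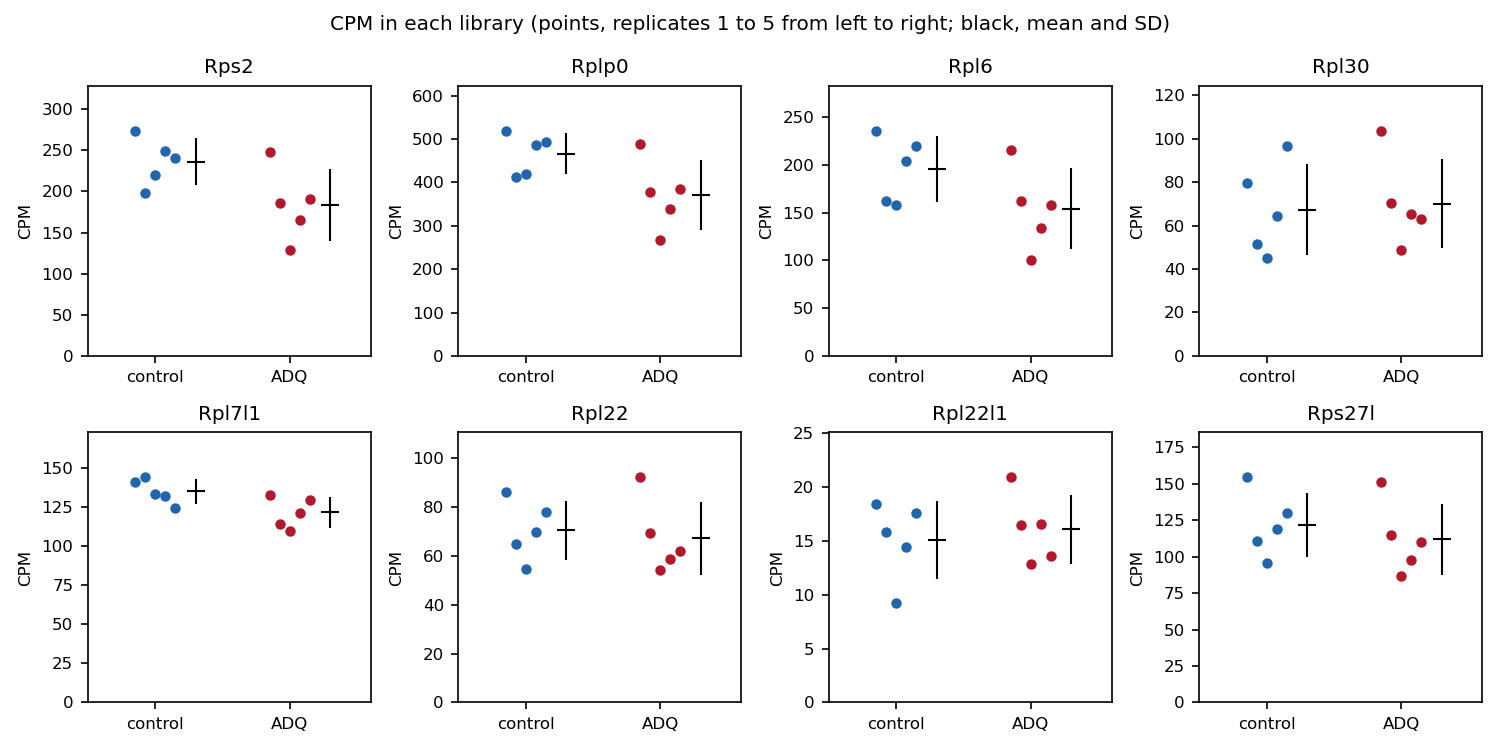
CPM (vertical axis, from 0) of 8 genes in each library, with controls 1 to 5 in blue and ADQ 1 to 5 in red from left to right and the mean and SD of each group (n = 5) in black. ADQ 1 is the highest and ADQ 3 the lowest of the ADQ libraries in all 8 panels, as for Rps2 (248 and 129 CPM), and the groups overlap in every panel.

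Across libraries the ribosomal protein genes varied as a unit. For the 79 genes that averaged 1 CPM or more, the correlation of a gene's log2 CPM with the mean of the others over the 10 libraries had a median of 0.971, and 71 genes were above 0.9. These correlations are a description: the points share library preparation and depth. A single axis held 86.6% of the variance of these genes (88.5% of the variance within groups), beside 28.0% for the 15925 genes of at least 1 CPM. The genes that followed least were Rpl3l (0.172), Rpl7l1 (0.516) and Rpl22l1 (0.708), all of which carry paralog names. Rps27l, also a paralog by name, had 0.973. The next lowest was Rpl23a (0.785), which carries no paralog name.

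The level of the unit spread more widely within groups than the groups differed. Together the 83 genes took 1.40, 1.11, 1.03, 1.22 and 1.39% of all counts in controls 1 to 5 and 1.45, 1.16, 0.890, 1.03 and 1.05% in ADQ 1 to 5. ADQ 1 had the highest share and ADQ 3 the lowest, so the ADQ range enclosed the control range. The median deviation of the genes from their own mean over libraries was 0.41, -0.06, -0.24, 0.11 and 0.31 log2 units in controls 1 to 5 and 0.43, -0.02, -0.54, -0.22 and -0.17 in ADQ 1 to 5. Between ADQ 1 and ADQ 3, 2 libraries of 1 group, the genes of at least 20 CPM differed 1.97-fold in the median. The nuclear genes for mitochondrial ribosomal proteins, which serve a separate ribosome, ranged 1.63-fold with ADQ 3 again lowest and control 1 highest; 0 of 77 passed the test, 74 were below 0, and their median log2 fold change was -0.19.

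The position of a library on this axis ran opposite to a trend with transcript length among other genes. The trend is the change in log2 CPM for each doubling of transcript length, fitted in each library over genes of at least 1 CPM other than these. It was -0.085, -0.012, 0.130, 0.007 and -0.075 in controls 1 to 5 and -0.115, 0.0005, 0.092, 0.008 and 0.051 in ADQ 1 to 5. The 3 libraries in which ribosomal protein genes were highest (ADQ 1, control 1 and control 5) had the 3 lowest values, and the 2 in which they were lowest (ADQ 3 and control 3) had the 2 highest. In a fit of length and GC content together, the change for each 10 percentage points of GC was 0.057, 0.044, 0.035, 0.076 and 0.079 in controls 1 to 5 and -0.047, -0.118, -0.119, -0.039 and 0.033 in ADQ 1 to 5, above 0 in every control and below 0 in 4 of 5 ADQ libraries. With the length trend of each library as a covariate, the median log2 fold change of the 82 genes was -0.15, 77 were below 0, 37 had an unadjusted p under 0.05 (20.7% of all genes) and 0 passed the test, with a smallest adjusted p of 0.0747 (Rps15, edgeR). With the length and GC trends removed, the median was -0.15, 76 were below 0, 10 had an unadjusted p under 0.05 (14.4% of all genes) and 0 passed the test.

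**Figure D3:**
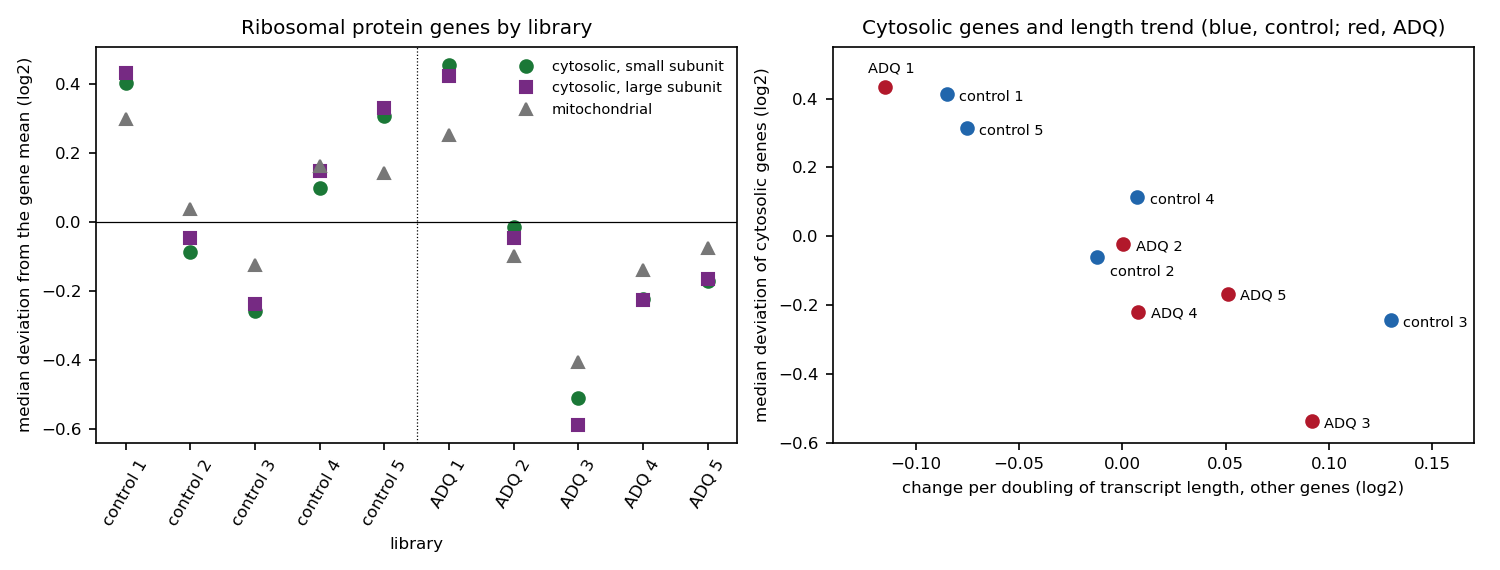
Left, median deviation from each gene's mean (log2) by library for cytosolic ribosomal protein genes of the small and large subunit and for mitochondrial ribosomal protein genes. Right, the median deviation of the cytosolic genes (vertical axis, log2) against the change per doubling of transcript length among other genes (horizontal axis, log2), 1 point per library; ADQ 1 (0.43 at -0.115) and ADQ 3 (-0.54 at 0.092) lie near the ends of both axes.

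Markers of immune cells, rods and fibroblasts had estimates mostly above 0, and those of the RPE mostly below 0. The lymphocyte sums, given above, were higher in every ADQ library than in controls 1 to 4. The 10 macrophage markers were all above 0 with a median of 0.32, 2 passed the test (1 without control 5), and they summed to 1658 to 2163 CPM in control and 1733 to 2800 CPM in ADQ. The 10 rod photoreceptor markers, all above 0 with 0 called, summed to 580 to 2167 CPM in control and 529 to 3950 CPM in ADQ. The lymphocyte, macrophage and rod lists held no marker at 0 in any library. Of 8 fibroblast and sclera markers 6 were above 0 (median 0.43) and 1 passed, Kera, a proteoglycan of corneal and scleral stroma (log2 fold change 1.15, edgeR adjusted p = 0.0470, and 0.0532 without control 5); they summed to 7374 to 8987 CPM in control and 5748 to 10608 CPM in ADQ. With the mean of the rod markers as a covariate the median log2 fold change of the 82 ribosomal protein genes was again -0.20. With the mean of the skeletal muscle markers instead it was -0.24, and 0 of the 82 passed in either fit. The part of the lymphocytes, macrophages, fibroblasts, fat cells, cornea and conjunctiva in this median was not tested.

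The 2 subunits kept a nearly fixed proportion. Counts of small subunit genes were 0.640, 0.630, 0.627, 0.621 and 0.644 of those of large subunit genes in controls 1 to 5 and 0.650, 0.647, 0.653, 0.640 and 0.648 in ADQ 1 to 5. The ratio spanned 1.05-fold over the 10 libraries, whereas the summed share of counts spanned 1.63-fold. The ranges of the groups overlapped, since ADQ 4 lay below control 5. Without control 5 they did not overlap, at 0.6213 to 0.6395 in control and 0.6404 to 0.6529 in ADQ.

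Many single genes also kept their share of the ribosomal protein counts closely, and the 10 largest held 30.0% together. Others did not: over the libraries Rpl3l ran from 0.0221 to 0.139% and Rpl7l1 from 0.862 to 1.39%. In 5 genes, 6.10% of the 82 tested, the shares of the groups did not overlap, beside 2.47% of all genes tested when set against the same sum; the ratios of other genes also carry the variation of that sum. Rpl22, a large subunit protein that binds RNA outside the ribosome and is known as a tumour suppressor in T cells, made up 0.558, 0.582, 0.545, 0.545 and 0.542% in controls 1 to 5 and 0.599, 0.614, 0.689, 0.592 and 0.593% in ADQ 1 to 5. Every ADQ library was above every control. Rps27, a zinc finger protein of the small subunit, took 1.01, 0.994, 0.915, 0.993 and 1.01% in controls 1 to 5 and 1.12, 1.16, 1.14, 1.05 and 1.07% in ADQ 1 to 5. Rpl32 was also higher in every ADQ library (1.31 ± 0.0868% in control and 1.45 ± 0.0322% in ADQ, SD, n = 5 each). Rpl7 (2.08 ± 0.0515% and 1.95 ± 0.0426%) and Rpl10a (0.854 ± 0.0127% and 0.811 ± 0.0197%) were lower in every ADQ library. These genes were singled out after their values were seen, and with libraries scaled to the summed ribosomal protein counts edgeR called 0 of 82, where 0.706% of all genes passed. Under that scaling the median of the 82 was 0.03 and the median of all genes 0.26.

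Within the set, fold changes varied with the length of the coding sequence. Of the 75 genes of at least 20 CPM, the 38 with a coding sequence of at most 453 bases had a median log2 fold change of -0.16 and the 37 longer ones -0.26. The rank correlation over the 75 genes was -0.52, whereas over 7183 other genes of the same minimum level it was 0.29. For GC content the median was -0.16 in the 38 genes at or below the midpoint and -0.25 in the 37 above it, and the rank correlation was -0.41 beside -0.33 in the other genes. Genes share libraries and are not replicates, so these are descriptions.

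Per length of transcript, ribosomal protein genes were among the most abundant of the tissue. Their mean level had a median of 156 CPM per kb of transcript, beside 3.40 CPM per kb over all genes tested with a length. In 65 of 82 it was 100 CPM per kb or more. That level was not reached by 95.4% of the 20668 tested genes with a length. Among the highest were Rpl13 at 581, Rpl41, which encodes the shortest of the proteins, at 577, Rplp1 at 569 and Rps14 at 523 CPM per kb. In control the level was 633 ± 98.7 CPM per kb for Rpl13, 626 ± 142 for Rpl41 and 608 ± 119 for Rplp1 (SD, n = 5). These genes moved together over libraries, so the SDs do not measure differences between them. The order of Rpl13 and Rpl41 changed, at 743 and 812 CPM per kb in control 1 and 528 and 449 in control 3. Of the 82, 5 were under 10 CPM per kb: Rpl13a at 8.40, Rpl3l at 7.47, Rps10 at 1.35, Rpl39l at 1.19 and Rpl24 at 0.787.

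**Figure D4:**
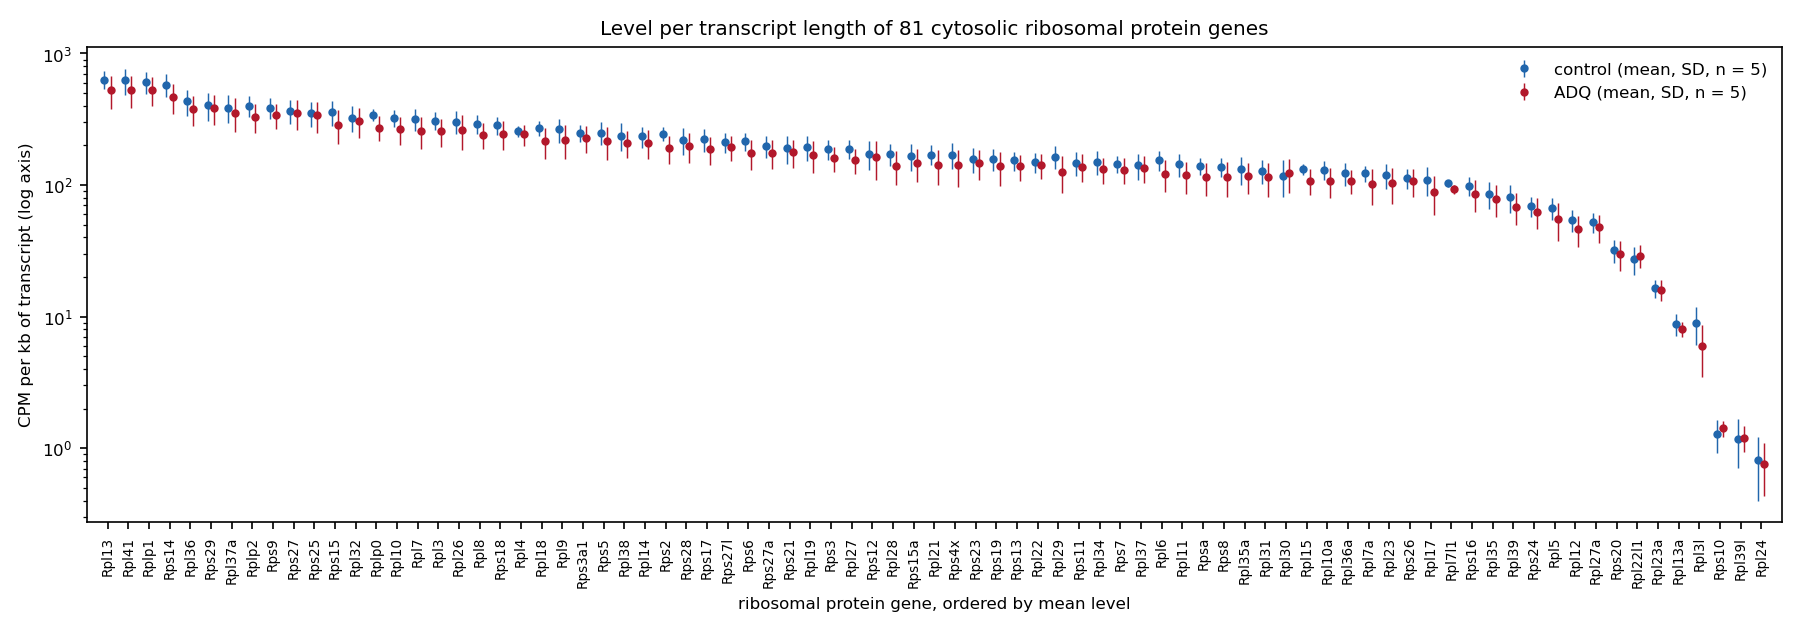
Level of 81 cytosolic ribosomal protein genes in CPM per kb of transcript (log axis), with the mean and SD of control (blue) and ADQ (red), n = 5 each, in order of the mean over libraries. The genes run from 581 CPM per kb (Rpl13) to 0.787 (Rpl24), with a step down among the last 10.

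For 3 of the lowest genes, which encode core proteins of the ribosome, the annotation holds a second gene over the same exons on the same strand. Rpl24 (chr16:55966275-55971435, GRCm38) had 5 to 43 counts in a library, and Gm28037, which shares 484 exon bases with it, had 0. Rps10 had 29 to 60 counts, and RPS10-NUDT3, which shares 475 exon bases, had 0, while 4 pseudogene entries named after Rps10 held 475 to 1085 counts. Rpl13a, a protein also released from the ribosome in interferon-treated monocytes, had 330 to 505 counts, and Gm45713, which shares 621 exon bases, had 0. In the shallowest library a count of 0 allows up to 0.0688 CPM, as counting error alone. How reads over shared exons were assigned is not stated in the sources, so the levels of these 3 genes, and their fold changes, are uncertain.

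Rpl23a, at 16.2 CPM per kb, had 360 to 536 counts, shares 506 exon bases with Tlcd1 on the opposite strand, which had 631 to 1244 counts, and has 14 named pseudogene entries with 224 to 455 counts. Whether counting used strand is not stated in the sources. In all, 38 of the 83 genes share exon bases with another listed gene, 22 of them with a gene other than a small nucleolar RNA or microRNA. There were 311 pseudogene entries named after a ribosomal protein gene, inside the set or not, of which 278 had a count in at least 1 library. Their counts amounted to 4.11% to 6.59% of those of the 83 genes. Pseudogenes under other symbols were left out of this share.

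Some paralogs replace their partners in certain tissues, and 5 pairs were compared as the paralog's level per kb in percent of its partner's. Over 252 assignments of the libraries the smallest two-sided exact permutation p possible is 0.00794, and the adjusted p over the 5 ratios was 0.524 for each. Rps27l, a p53 target, stood at 58.4 ± 3.50% in control and 55.6 ± 2.97% in ADQ (SD, n = 5 each, exact permutation p = 0.214). Rpl7l1, known from assembling large subunits, stood at 33.5 ± 7.40% in control and 37.6 ± 7.32% in ADQ (SD, n = 5 each, exact permutation p = 0.373). Rpl22l1, which shares RNA targets with Rpl22, stood at 18.2 ± 2.39% in control and 20.6 ± 2.10% in ADQ (SD, n = 5 each, exact permutation p = 0.135), and Rpl39l, known from testis, at 1.63 ± 1.10% in control and 1.78 ± 0.233% in ADQ (SD, n = 5 each, exact permutation p = 0.437). Without control 5 the smallest exact permutation p of the 5 ratios was 0.0952 (Rps27l, unadjusted).

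Rpl7l1 stood at 141, 144, 133, 132 and 124 CPM in controls 1 to 5 and at 133, 114, 109, 121 and 129.6 CPM in ADQ 1 to 5. Its values spread far less than those of its partner: 135 ± 7.77 CPM in control and 121 ± 9.93 CPM in ADQ (SD, n = 5 each), beside 266 ± 51.7 CPM in control and 215 ± 58.7 CPM in ADQ (SD, n = 5 each) for Rpl7. Rpl22l1 stood at 18.4, 15.8, 9.23, 14.4 and 17.6 CPM in controls 1 to 5 and at 20.9, 16.5, 12.9, 16.5 and 13.6 CPM in ADQ 1 to 5. The lowest value was in control 3 and the highest in ADQ 1, and the groups overlapped (log2 fold change 0.09, SE 0.18, edgeR adjusted p = 0.846).

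Rpl3l is the paralog of Rpl3 made in skeletal and heart muscle. Its level was 6.87, 11.8, 13.1, 17.8 and 11.9 CPM in controls 1 to 5 and 10.4, 10.5, 7.80, 10.4 and 2.31 CPM in ADQ 1 to 5. ADQ 5 was the lowest library and control 4 the highest, and the groups overlapped (log2 fold change -0.57, SE 0.38, edgeR adjusted p = 0.511). The 12 skeletal muscle markers summed to 1568, 2813, 2734, 3586 and 2635 CPM in controls 1 to 5 and 2145, 2471, 2112, 2385 and 492 CPM in ADQ 1 to 5, with ADQ 5 again lowest and control 4 highest. For each 1000 CPM of muscle markers Rpl3l stood at 3.69 to 4.97 CPM in every library. Of the 12 markers, 10 were below 0 in log2 fold change, 0 passed the test and none was at 0 counts. The log2 fold change of Rpl3l was -0.11 with the muscle markers as a covariate, -0.12 with the rod markers as a covariate and -0.33 without ADQ 5. Relative to Rpl3 it stood at 2.98 ± 1.09% in control and 2.43 ± 1.11% in ADQ (SD, n = 5 each, exact permutation p = 0.524).

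**Figure D5:**
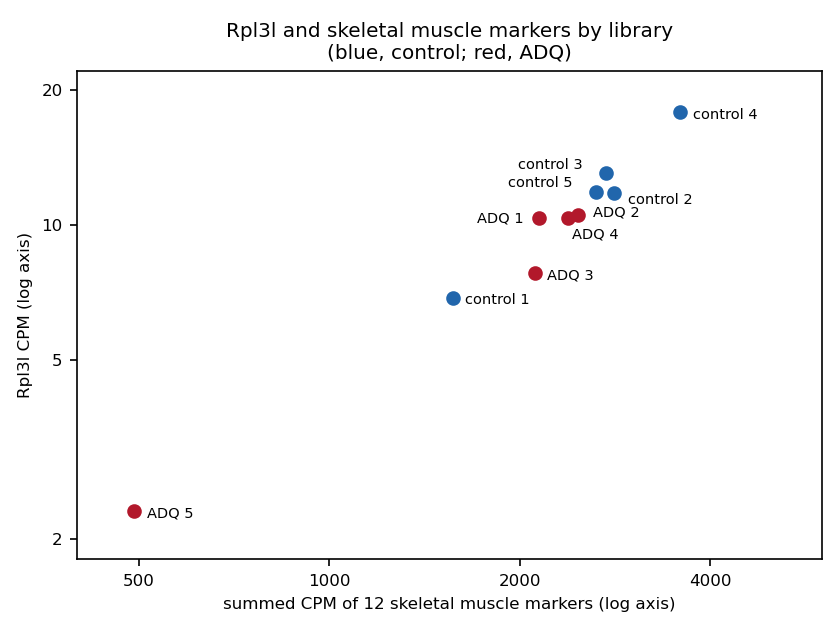
Rpl3l (CPM, log axis) against the summed CPM of 12 skeletal muscle markers (log axis), 1 point per library, with controls in blue and ADQ in red. The points lie along 1 diagonal, from ADQ 5 (2.31 CPM of Rpl3l at 492 CPM of markers) to control 4 (17.8 at 3586).

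The other genes of the pathway gave few calls. Ribosome components that the name pattern leaves out gave 0 calls of 5, with log2 fold changes of -0.27 for Rack1 and -0.28 for Fau, close to the median of the set, and 0.32 for Rpl36al. Of 14 elongation factors and other TOP messages 0 passed and 12 were below 0 (median -0.12), with -0.33 for Eef1g and -0.20 for Eef2, the factor that moves the ribosome along. Of 37 assembly factors 0 passed (median -0.05). At an unadjusted p under 0.05 in edgeR there were 6, where 13.8% of all genes tested reached that level. Mrto4, a placeholder for the stalk base during assembly, stood at -0.32, and Fbl, the methylase of ribosomal RNA, at -0.22. Of 15 genes of RNA polymerase I, which makes ribosomal RNA, 0 passed (median -0.05), and Polr1c stood at -0.26.

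Of 14 regulators of mTORC1 and TOP messages 0 passed, 7 were above 0 and 7 below 0 (median -0.003). Larp1, which binds the TOP tract, and Eif4ebp2, an inhibitor of cap binding, were both at -0.26. Of 10 genes of p53 and its targets 0 passed, with -0.32 for Phlda3 and 0.24 for Mdm2. Of 12 genes of ribosome stalling and quality control 0 passed, 9 were above 0 and the median was 0.03, with 0.29 for Ascc3, a helicase that splits collided ribosomes, and -0.16 for Zfp598, which marks them. Of 25 initiation factors 1 passed: Eif4a2, a helicase of the cap-binding complex, was at 91.1 ± 15.8 CPM in control and 137 ± 11.5 CPM in ADQ (SD, n = 5 each; log2 fold change 0.59, edgeR adjusted p = 0.0310). Every ADQ library was above every control for Eif4a2, and without control 5 its log2 fold change was 0.51 (edgeR adjusted p = 0.0254).

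The authors' deposited table lists 80 of the 83 genes among 15860. 0 of the 80 had an adjusted p under 0.05 in the authors' deposited table, against 5.42% of all genes listed, and 77 were below 0 on the log2 scale (median -0.24). At an unadjusted p under 0.05 the authors' deposited table holds 23 of the 80, beside 27.5% of all its genes.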

How the data were processed

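RNA of 10 RPE/choroid samples, 5 control and 5 ADQ as their titles say, was taken into TRIzol, purified on NucleoSpin columns and amplified by SMARTer, per the labels' protocols. The submitters' processing notes name bcl2fastq, DRAGEN, edgeR, limma and GRCm38, without roles or versions. The deposited counts are whole numbers per Ensembl gene, not normalized; 287 repeats of a gene were dropped here. A second table holds the authors' log2 CPM and log2 fold changes, the authors' p-values, raw and adjusted, which were copied as deposited, and the authors' limma scores (t and log odds), which were not used.

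Genes kept by filterByExpr (minimum count 10, minimum total 15) were scaled by TMM and tested for group with edgeR 4.0.16 (robust quasi-likelihood, R 4.3.3) at a Benjamini-Hochberg adjusted p of 0.05 over all genes. CPM use TMM-scaled library sizes. Each standard error was the absolute log2 fold change divided by the root of its F statistic. DESeq2 1.42.0 and limma 3.58.1 served as alternatives, with other scalings, filters, covariates, a replicate block and each library left out; 2 settings (length and GC trends removed, scaling to the summed ribosomal protein counts) were added after seeing the data, as were the paralog ratios without control 5. Ratios of paralogs were compared by exact permutation (scipy 1.17.1). Gene models are GENCODE M21 (99.5% of IDs matched) and promoters RefSeq GRCm38.p6; length and GC were known for 15343 of 15377 protein-coding genes tested, and the GC fit used 13709 genes. Lengths are those of 1 coding transcript model per gene, which 15473 of the 20684 genes tested had. Other genes with a length used all their annotated exons merged, also in the length trend. Levels per kb depend on these lengths.

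Named genes are any called, the 10 largest log2 fold changes, the 5 highest and 5 lowest per kb, paralogs, stalk genes with Rpsa, genes with a known role, and up to 4 of each pathway list by p; genes that these rules name but the text leaves out are not reported here. The genes and lists were chosen with earlier results of these data known. The smallest chi-square between libraries was 33.9 per degree of freedom, so none was a copy. The fit was tested on simulated data. No sample's column of counts was left unused. Amplified reads carry no molecular identifiers here.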

Additional observations from a re-analysis of the deposited data

How the results depend on the processing

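Over 25 alternatives the count of ribosomal protein genes called was 0 in 24, and their median log2 fold change stayed below 0 in 24, from -0.35 to -0.11; scaled to the summed ribosomal protein counts it was 0.03, while the median of all genes was 0.26. The counts of all genes called, 171 in the reported fit, were 773 with DESeq2, 664 with voom and quality weights, and 606 with the length trend as a covariate, and 78 to 357 with 1 library left out (78 without control 4, 81 without ADQ 2, 87 without ADQ 4, 96 without control 1, 99 without ADQ 3 and 357 without control 5). The cause was not tested. With 1 library left out, 0 to 50 ribosomal protein genes had an unadjusted p under 0.05, and the smallest adjusted p ran from 0.0840 to 0.536 (edgeR). Depth limits most the estimates for Rpl24, Rps10 and Rpl39l, the genes with the fewest counts among those tested.

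With the replicate number as a block, 694 genes and 2 ribosomal protein genes were called, Rps14 (log2 fold change -0.33, adjusted p = 0.0409, edgeR) and Rps15 (-0.33, 0.0491), and 43 had an unadjusted p under 0.05, where 20.7% of all genes did. The samples share only a number: correlations of same-numbered samples were 0.033, 0.030, 0.163, 0.015 and -0.113, and 1 of 5 controls correlated best with its own number.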
